A study of Drosophila melanogaster with 6 samples.

Results

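Klingon (klg), Borderless (bdl), Turtle (tutl), Echinoid (ed) and Friend of echinoid (fred) are cell-surface proteins with immunoglobulin domains. Their 5 genes were taken by FlyBase identifier from a table of 17471 genes, and all 5 were found once and passed the filter on low counts. The libraries hold RNA of anterodorsal projection neurons (adPNs), second-order olfactory neurons whose dendrites innervate glomeruli of the antennal lobe, from Drosophila melanogaster pupae 36 to 40 h after puparium formation. There were 3 libraries labelled acj6 mutant, whose titles name acj66, and 3 labelled wild-type. acj6 encodes a POU-domain transcription factor of this lineage, and the series title asks how it controls dendrite targeting through cell-surface proteins. The labels give neither the lesion nor sex, driver, number of animals or how mutant cells were made. All 6 libraries held reads of an mCD8-GFP transgene (4043 to 4517 CPM, reads scaled to the library's gene counts, in the mutant and 3126 to 4230 CPM in the wild type). Nothing says whether the libraries came from separate animals, so p-values measure the spread between libraries, which may be technical.

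Proteins of this kind stand on neuron surfaces and bind copies of themselves, or other surface proteins, on neighbouring cells. Klingon is a homophilic adhesion protein known from photoreceptor development and long-term memory. Turtle shapes dendrite branching and keeps the axon endings of neighbouring photoreceptors apart, and Borderless is a related protein that binds Turtle in the same setting. Echinoid is a homophilic protein of epithelial junctions that limits EGF receptor signalling and feeds into the Notch and Hippo pathways, and Friend of echinoid is its close paralog, known from Notch signalling in sensory organ precursors.

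The libraries held 30980945 to 38279909 gene counts in the mutant and 24467328 to 34547549 in the wild type. Markers of these neurons (acj6, C15, kn, ChAT, VAChT, elav and nSyb) were counted in every library and summed to 3390 to 3560 CPM in the mutant and 2505 to 2799 CPM in the wild type. kn, a transcription factor gene, rose (1332 ± 137 CPM in the mutant and 453 ± 45.8 CPM in the wild type, adjusted p 0.00223, edgeR). Without kn the sums were 2034 to 2216 CPM in the mutant and 2102 to 2307 CPM in the wild type, but they still hold acj6. Most of each was nSyb, at 1227 to 1350 CPM in the mutant and 1346 to 1526 CPM in the wild type. C15, ChAT, VAChT, elav and nSyb were not called, with log2 fold changes of -0.03, 0.10, -0.04, -0.18 and -0.15. acj6 itself was called higher, counted at 251 ± 24.2 CPM in the mutant and 149 ± 7.96 CPM in the wild type (SD, n = 3 each, adjusted p 0.0124, edgeR). Since the lesion is not given, this total over the gene is no check of the label. Of 13 glial markers nrv2 and bnb fell (adjusted p 0.0425 and 0.0191, edgeR), against 1.33% of all tested genes called lower. The list did not move 1 way, since 4 of the 13 were higher in the mutant without a call. These were axo, loco, Eaat1 and Gat (log2 fold change 1.12, 0.79, 0.65 and 0.10). The nrv2 call was lost whichever library was left out, and the bnb call held only without wild-type replicate 1 among those settings. The glial list summed to 610 to 659 CPM in the mutant and 846 to 925 CPM in the wild type, while the defining glial factor repo was at 0.664 to 2.47 CPM in the mutant and 0.833 to 3.04 CPM in the wild type. Markers of other transmitter types came to 279 to 381 CPM in the mutant and 434 to 555 CPM in the wild type. Of 10 of them DAT, the dopamine transporter gene, fell, against the same 1.33%. It was at 1.32 to 2.98 CPM in the mutant and 13.9 to 31.4 CPM in the wild type (adjusted p 0.0111, edgeR, and 0.0542 without wild-type replicate 2). Epithelial and cuticle markers came to 113 to 155 CPM in the mutant and 154 to 252 CPM in the wild type. Of 8 tested, 4 cuticle protein genes fell (adjusted p 0.00971 to 0.0248, edgeR), against the same 1.33%, and limma-voom called none of the 4. In the same list grh and kkv were higher in the mutant without a call (log2 fold change 1.34 and 1.42, adjusted p 0.479 and 0.677, edgeR). The groups did not overlap for grh. Like the other marker lists, this one was drawn up with earlier results of these data known. Its calls are therefore not independent evidence. Cpr100A and Lcp65Ad had 0 counts in each mutant library and 69 to 1141 in the wild type, Cpr51A 0 to 3 counts in the mutant and 107 to 879 in the wild type, and Cpr72Eb 1 to 29 counts in the mutant and 241 to 1059 in the wild type. Muscle markers came to 25.5 to 46.8 CPM in the mutant and 16.6 to 29.4 CPM in the wild type. Hemocyte and fat body markers, nearly all of them Pxn, came to 3911 to 5554 CPM in the mutant and 4728 to 5218 CPM in the wild type, with He at 0 counts in all 6 libraries. Progenitor markers stayed at or under 11.2 CPM in the mutant and 12.4 CPM in the wild type, with wor at 0 counts. The most abundant gene of each list beyond glia (Tbh, mmy, Mef2, Pxn and stg) was not called. What part these cells have in the values of the 5 genes was not tested.

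klg and tutl were the abundant members and the other 3 were present at far lower levels. Per kilobase of transcript, klg averaged 140 ± 16.2 CPM in the mutant and 111 ± 7.59 CPM in the wild type (SD, n = 3 each). The tutl level per kilobase was 70.1 ± 4.41 CPM in the mutant and 71.6 ± 8.10 CPM in the wild type. klg stood above tutl, and tutl above the rest, in 6 of 6 libraries without overlap of their ranges. Among all tested genes, 90.5% had a lower level per kilobase than klg and 83.9% a lower level than tutl.

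The 3 remaining genes lay close together. fred averaged 10.3 ± 1.94 CPM per kilobase in the mutant and 5.47 ± 1.33 CPM in the wild type. For ed the level per kilobase was 4.24 ± 0.324 CPM in the mutant and 5.71 ± 2.95 CPM in the wild type, and for bdl 3.996 ± 1.62 CPM in the mutant and 4.31 ± 1.30 CPM in the wild type. fred exceeded ed in 5 of 6 libraries and ed exceeded bdl in 4 of 6, and the ranges of both neighbouring pairs overlapped. These genes sat below the middle of the tested genes, with 44.4%, 36.9% and 34.3% of them at a lower level per kilobase than fred, ed and bdl. Lengths are medians over annotated transcripts. Those of tutl run from 1874 to 7798 bases, and over its joined exons of 9888 bases its level was 37.0 CPM per kilobase in the mutant and 37.8 CPM in the wild type, still between klg and fred. On that scale bdl (4.15 CPM over all libraries) stood above ed (3.96 CPM).

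**Figure D1:**
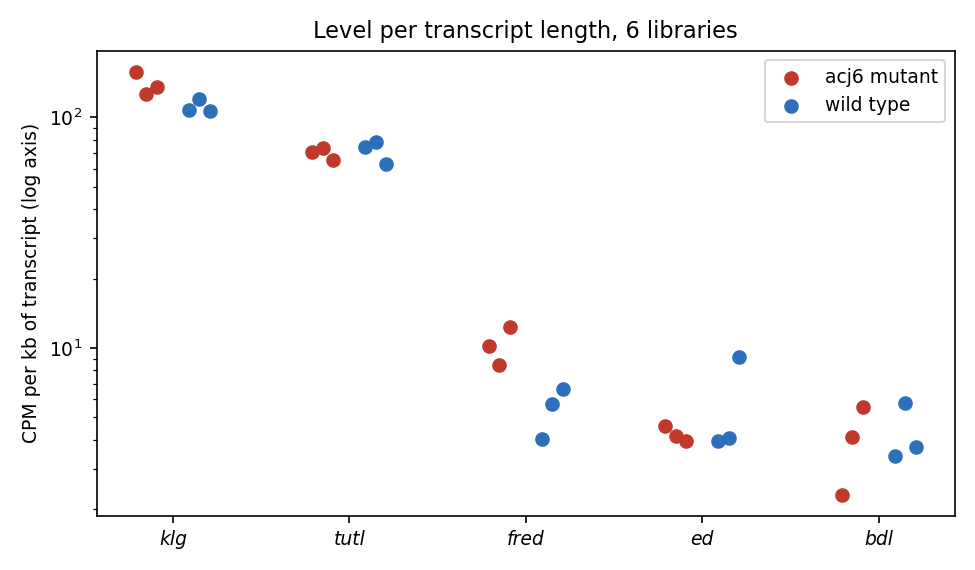
Level of the 5 genes in CPM per kilobase of median transcript length (log axis), 1 point per library, with acj6 mutant libraries in red on the left and wild-type libraries in blue on the right of each gene. klg and tutl lie above all points of the other 3 genes, whose ranges overlap.

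Replicate spread also differed between the members. Within a genotype the SD of log2 CPM was 0.14 for klg and for tutl, and only 10.3% and 10.5% of tested genes had a smaller one. It was 0.33 for fred, 0.49 for ed and 0.54 for bdl, with 44.8%, 60.8% and 64.1% of tested genes below. Raw counts were 10848 to 24044 per library for klg and 8221 to 14346 for tutl, but 238 to 561 for bdl.

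No member passed the threshold between genotypes in edgeR's quasi-likelihood test, a count model fitted over all 9229 tested genes with p-values adjusted over all of them. At an adjusted p under 0.05 the model called 4.40% of tested genes (3.07% higher and 1.33% lower in the mutant) and 0 of the 5 members. At an unadjusted p under 0.05 it passed 2 of the 5 members, fred and klg, against 16.6% of all tested genes. The same pair had groups that did not overlap, against 23.2% of tested genes. DESeq2 called 1 member, fred, against 10.2% of the genes it tested, and limma-voom called 0. The median log2 fold change of the 5 was -0.03, against -0.01 over all tested genes. In bulk libraries, fewer cells of a type and less RNA per cell cannot be told apart.

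fred showed the widest separation of the genotypes among the 5. It was counted at 49.98, 41.6 and 60.7 CPM in acj6 mutant replicates 1 to 3 and at 19.9, 28.03 and 32.9 CPM in wild-type replicates 1 to 3. Each mutant library was above each wild-type library. The group means were 50.8 ± 9.57 CPM in the mutant and 26.9 ± 6.56 CPM in the wild type (SD, n = 3 each), a log2 fold change of 0.92 ± 0.25 (SE), or 1.89-fold with a 95% interval of 1.27 to 2.80. The unadjusted p was 0.00563 and the adjusted p 0.0851 in edgeR. DESeq2 gave fred a log2 fold change of 0.93 with an adjusted p of 0.0106, and its adjusted p ran from 0.0106 to 0.242 across the 16 alternatives.

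klg had the next largest separation. Its values were 638, 511 and 547 CPM in mutant replicates 1 to 3 and 435, 486 and 430 CPM in the wild type. The mutant libraries all lay above the wild-type ones, with the lowest mutant value close to the highest wild-type value. Means of 566 ± 65.5 CPM in the mutant and 450 ± 30.8 CPM in the wild type gave a log2 fold change of 0.33 ± 0.11, or 1.26-fold (95% interval 1.05 to 1.502). The adjusted p was 0.168 in edgeR and 0.0590 in DESeq2.

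tutl, the other abundant member, differed between the genotypes by less than the spread between libraries. It stood at 370, 386 and 341 CPM in mutant replicates 1 to 3 and at 387, 407 and 326 CPM in the wild type. The groups overlapped, and wild-type libraries were both the highest and the lowest. Its estimate was -0.03 ± 0.12 on the log2 scale (adjusted p 0.937), and the 95% interval of 0.814-fold to 1.18-fold bounds the difference on both sides.

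ed was even across 5 libraries and stood apart in one. The mutant libraries had 23.5, 21.3 and 20.2 CPM and the wild-type libraries 20.2, 20.8 and 46.6 CPM. The high value belongs to wild-type replicate 3, whose 1174 reads of ed were the most of any library. With it the log2 fold change was -0.43 ± 0.35 (adjusted p 0.614, 95% interval 0.429-fold to 1.29-fold), and without it the direction turned, at 0.078 (adjusted p 0.937). In wild-type replicate 3 the muscle markers summed to 29.4 CPM, the highest of the wild-type libraries. Summed markers of epithelium and cuticle (154 CPM, of which mmy was 113), of glia (846 CPM) and of other transmitter types (434 CPM) were at their lowest among the wild-type libraries. Within the last list VGlut (73.1 CPM), Gad1 (19.5 CPM), VGAT (19.9 CPM) and Trhn (5.12 CPM) were at their highest among the wild-type libraries, and the rest at their lowest. Sums for hemocytes and fat body (4843 CPM) and for progenitors (7.10 CPM) lay between those of the other wild-type libraries. The part of any of these in the ed value was not tested.

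bdl was the least abundant member by CPM and had the widest relative spread. Its levels were 6.32, 11.3 and 15.1 CPM in mutant replicates 1 to 3 and 9.30, 15.8 and 10.2 CPM in the wild type. The groups overlapped, and the mutant libraries alone spanned nearly the whole range. The log2 fold change was -0.11 ± 0.42 (adjusted p 0.939), and its 95% interval of 0.479-fold to 1.80-fold is the widest of the 5 on the log2 scale. The sign of the bdl estimate turned without mutant replicate 1 (0.17) and without wild-type replicate 2 (0.17). For tutl it turned without mutant replicate 3 (0.025), wild-type replicate 1 (0.004) or wild-type replicate 2 (0.041), all of them close to 0.

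**Figure D2:**
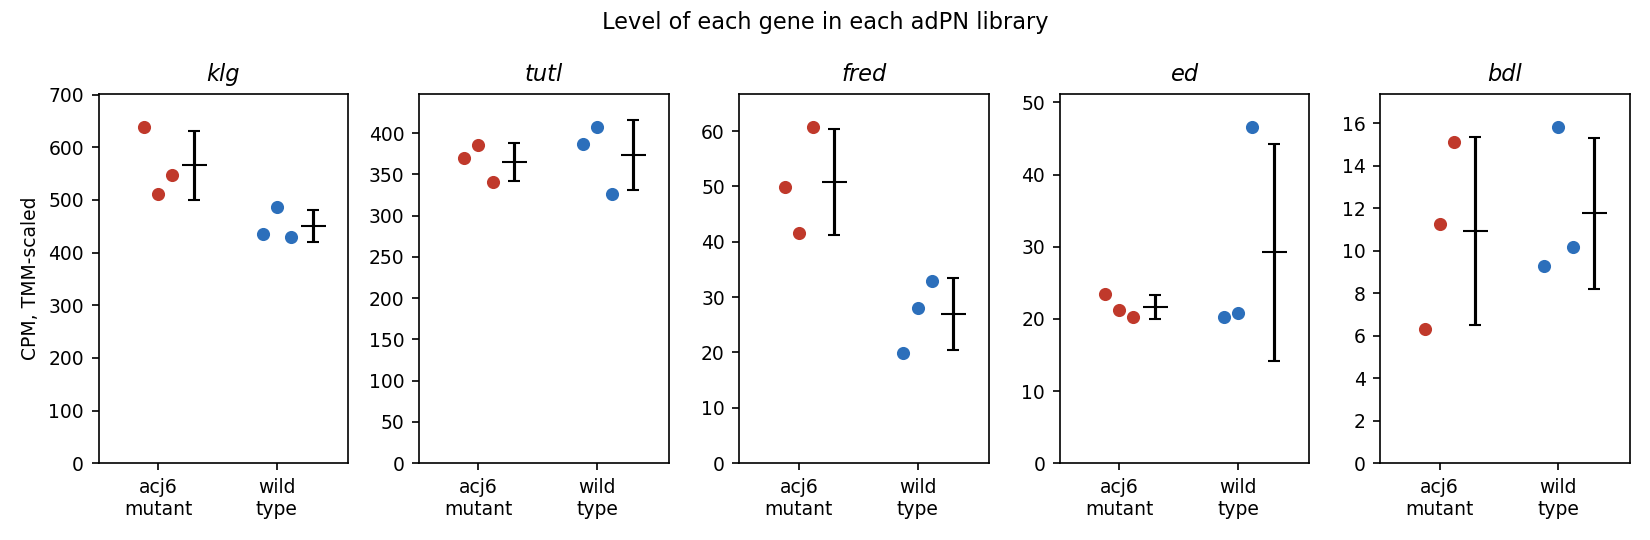
TMM-scaled CPM of each gene in each library, with acj6 mutant on the left and wild type on the right of each panel. Bars give the mean ± SD of 3 libraries, and axes start at 0. The groups do not overlap for klg and fred, and 1 wild-type library of ed, at 46.6 CPM, lies far above the other 5.

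Transcripts of these genes are longer than most, at 2730 (bdl) to 5214.5 bases (tutl) against a median of 1953.5 for tested genes, and long transcripts were counted higher in the mutant libraries. The trend with length, averaged over mutant minus wild-type libraries, was 0.20 on the log2 scale at the length of tutl, 0.19 at that of ed, 0.18 at that of fred, 0.12 at that of klg and -0.02 at that of bdl. With each library's trend removed edgeR called 3.74% of tested genes and 0 of the members. The log2 fold change of fred was then 0.72 (adjusted p 0.212), that of klg 0.21 (0.416), that of tutl -0.23 (0.287), that of ed -0.64 (0.448) and that of bdl -0.10 (0.943). fred and klg remained the highest of the 5 and ed the lowest, while tutl and bdl changed places.

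The ratio of ed to fred counts is free of library scaling and compares the paralogs directly. In the mutant fred outnumbered ed, with ed-to-fred ratios of 0.470, 0.512 and 0.334 in replicates 1 to 3. In the wild type the paralogs were near parity, at ratios of 1.02, 0.742 and 1.42. The groups did not overlap. The mean log2 ratio was -1.21 ± 0.33 in the mutant and 0.03 ± 0.47 in the wild type (SD, n = 3 each), a difference of -1.25. An exact two-sided permutation test over libraries gave p = 0.1, the smallest that 3 against 3 can give, and 0.2 when adjusted over the 2 ratios tested. Without wild-type replicate 3, the library with the high ed value, the difference was -1.01.

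The ratio of bdl to tutl, whose proteins bind each other, was low throughout. It was 0.0171, 0.0292 and 0.0445 in mutant replicates 1 to 3 and 0.0241, 0.0389 and 0.0312 in the wild type. Reads of tutl thus outnumbered those of bdl many times over in each library. These counts are not scaled to length, and tutl has the longer transcripts. Per kilobase the means over all libraries were 70.9 CPM for tutl and 4.15 CPM for bdl, a smaller gap. The mean log2 ratio was -5.15 ± 0.69 in the mutant and -5.02 ± 0.35 in the wild type, with overlapping groups and an exact permutation p of 0.9 (0.9 adjusted over the 2 ratios).

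**Figure D3:**
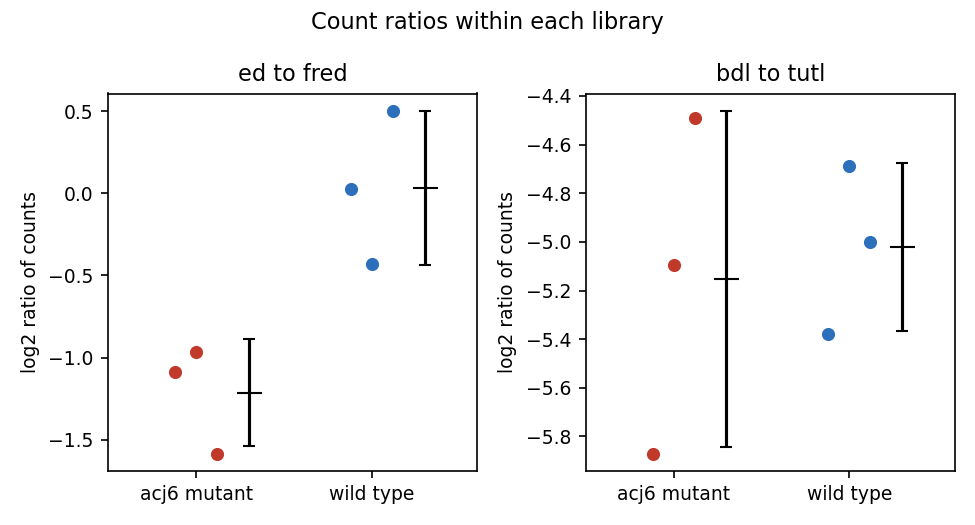
log2 ratio of read counts within each library for ed to fred and for bdl to tutl, with acj6 mutant on the left and wild type on the right and bars for the mean ± SD of 3 libraries. The ed to fred ratios lie between -1.58 and -0.97 in the mutant and between -0.43 and 0.50 in the wild type, while the bdl to tutl ratios overlap.

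As shares of the summed level per kilobase of the 5 genes, klg made up 64.1%, 58.2% and 60.8% in the mutant and 55.6%, 56.1% and 56.4% in the wild type. fred made up 4.13%, 3.90% and 5.55% in the mutant and 2.09%, 2.67% and 3.54% in the wild type, and tutl 28.9%, 34.1% and 29.4% in the mutant and 38.5%, 36.6% and 33.2% in the wild type. The groups did not overlap for klg and fred and did for tutl. Such shares add up to a fixed total and so move against each other.

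By the Ensembl annotation, 4 of the 5 genes lie on chromosome arm 2L and klg on 3R. By gene order, fred is followed by ed with 8 genes of the table between them, none of which exceeded 2.10 CPM in any library, and bdl is the next gene after tutl, on its strand. Between fred and bdl lie 31 other genes of the table, of which 5 were abundant enough to be tested. edgeR called 0 of these 5, against 4.40% of all tested genes. Those 5 were Tbcc, Naprt, ft, CG3702 and RpL40, with log2 fold changes from -1.18 (ft, a cadherin of the Hippo pathway) to 0.18 (RpL40, a ribosomal protein fused to ubiquitin). None had an unadjusted p under 0.05 in edgeR, against 16.6% of all tested genes. The groups did not overlap for Naprt, at 5.73 to 9.995 CPM in the mutant and 10.2 to 18.0 CPM in the wild type. They overlapped for the rest, and 23.2% of all tested genes had groups without overlap. The exons of ed overlap an antisense RNA, CR44984, over 199 bases, or 3.10% of its exon bases, and that RNA had 0 counts in each library. Exons of klg, bdl, tutl and fred overlap no other annotated gene. How many reads could have fitted ed and fred equally well was not tested.

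Among genes for proteins that bind these members or act with Echinoid, edgeR called none of the 5 tested, against 4.40% of all tested genes. cno and Nrg, 2 of these 5, had an unadjusted p below 0.05 in edgeR, and DESeq2 called both, against 16.6% and 10.2% of all tested genes. Without the filter on low counts edgeR called both as well, and without wild-type replicate 1 it called Nrg. With a replicate block it called cno, whether or not the length trend was removed. cno, which encodes the junction scaffold Canoe that binds Echinoid, had 44.5, 43.8 and 86.3 CPM in the mutant and 18.8, 10.5 and 30.0 CPM in the wild type. The groups did not overlap, and the estimate was 1.56 ± 0.41 on the log2 scale (adjusted p 0.0763, edgeR).

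Nrg, which encodes Neuroglian, an L1-type adhesion protein that can bind Echinoid, had 165, 206 and 157 CPM in the mutant and 137, 102.5 and 89.8 CPM in the wild type. Its groups did not overlap either, with a log2 fold change of 0.68 ± 0.19 and an adjusted p of 0.0850. jar, which encodes myosin VI, a motor that binds Echinoid, was at 16.6 to 34.4 CPM in the mutant and 27.8 to 48.5 CPM in the wild type (log2 fold change -0.60 ± 0.33). baz, the polarity protein Bazooka, was at 1.89 to 5.58 CPM in the mutant and 1.71 to 9.83 CPM in the wild type. Egfr, the receptor that Echinoid limits, was low, at 0.133 to 5.13 CPM in the mutant and 0.476 to 5.51 CPM in the wild type. cDIP, a secreted leucine-rich repeat protein that binds immunoglobulin-domain proteins, reached at most 0.267 CPM in the mutant and 0.328 CPM in the wild type and did not pass the filter.

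**Figure D4:**
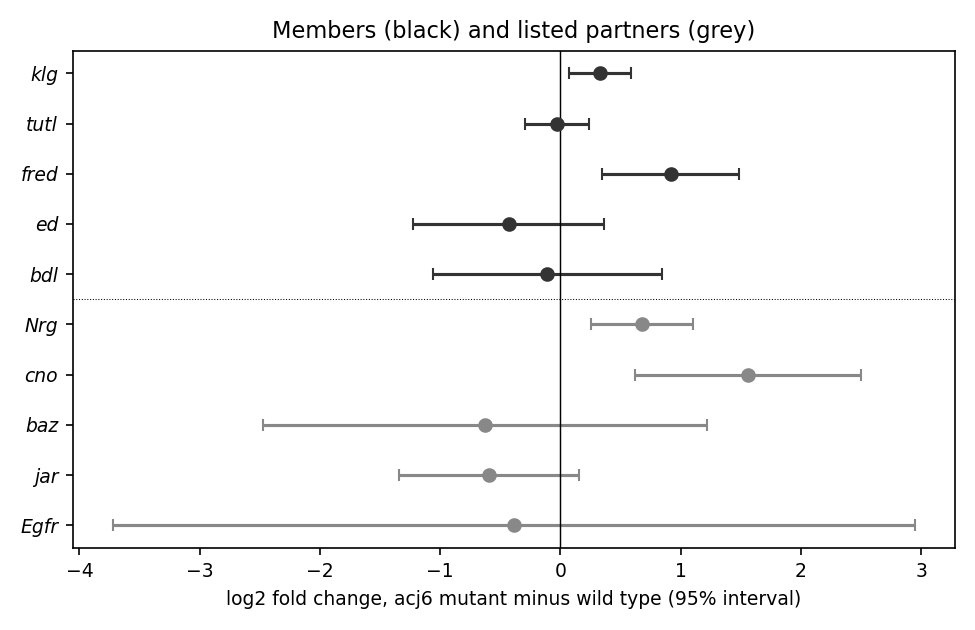
log2 fold change with its 95% interval from edgeR, acj6 mutant minus wild type, for the 5 genes (black) and 5 genes of partners (grey). The intervals of fred (0.34 to 1.49), klg (0.07 to 0.59), Nrg and cno lie above 0 without an adjusted p under 0.05, and that of tutl is the narrowest around 0 among the members.

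Of 30 tested genes for other proteins of the immunoglobulin superfamily, 8 rose and 2 fell, against 3.07% higher and 1.33% lower among all tested genes. They had a median log2 fold change of 0.42 against -0.01 over all tested genes, and 0.20 against 0.01 with the length trend removed. The list was drawn up with earlier results of these data known, so its direction is not independent evidence. The 3 with the smallest p were paralogs of Dscam1, a receptor of neurite self-recognition. Dscam3 rose to 774, 841 and 780 CPM in the mutant, against 428, 429 and 415 CPM in the wild type (adjusted p 0.00243, edgeR). Dscam4 was at 951, 796 and 847 CPM in the mutant and 491, 424 and 391 CPM in the wild type (adjusted p 0.00490, edgeR), and Dscam2 at 539, 565 and 556 CPM in the mutant and 376, 334 and 350 CPM in the wild type (adjusted p 0.0105). Of the lower pair, Lac, which encodes Lachesin, fell to 11.97, 14.1 and 13.4 CPM in the mutant, against 44.9, 54.3 and 32.4 CPM in the wild type (adjusted p 0.0110, edgeR). robo2, which encodes an axon guidance receptor for Slit, was at 84.6, 104 and 92.6 CPM in the mutant and 188, 138.5 and 148 CPM in the wild type (adjusted p 0.0362, edgeR), and leaving out any 1 of the 6 libraries ended its call. With the length trend removed the list held 3 higher and 2 lower genes, and leaving out 1 library left 3 to 8 higher and 1 lower. Dscam3, Dscam4 and Lac kept their calls in all 16 alternatives, while Dscam2 was no longer called once the length trend was taken out or when wild-type replicate 2 was dropped.

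Lists for junctions and for the pathways that Echinoid feeds into were read against 4.40% of all tested genes called by edgeR, 16.6% at an unadjusted p under 0.05 and 10.2% called by DESeq2. Of 19 tested junction and polarity genes edgeR called 1, CadN (N-cadherin), at 817, 780.5 and 701 CPM in the mutant and 572, 494 and 462 CPM in the wild type (log2 fold change 0.59 ± 0.11, adjusted p 0.0243, edgeR). CadN was no longer called once the length trend was taken out, or without mutant replicate 1 or 2 or wild-type replicate 2 or 3. In that list 6 genes had an unadjusted p below 0.05, and DESeq2 called 4, as did edgeR without the filter on low counts (CadN, cno and crb higher, p120ctn lower). edgeR called 0 of 22 EGFR pathway genes, of which 7 had an unadjusted p below 0.05 and DESeq2 called 5, and the median log2 fold change was -0.24. In that list drk was also called lower by limma-voom, and by edgeR with no filter, the stricter filter or mutant replicate 1 left out. Sos was called without the filter and Ras85D with upper-quartile scaling. Of 18 Notch pathway genes edgeR called 0, with 3 below an unadjusted p of 0.05 and 2 called by DESeq2 (median 0.05). Without the filter edgeR called dx. Of 18 Hippo pathway genes edgeR called 0, with 1 below an unadjusted p of 0.05 and 1 called by DESeq2 (median -0.16).

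**Figure D5:**
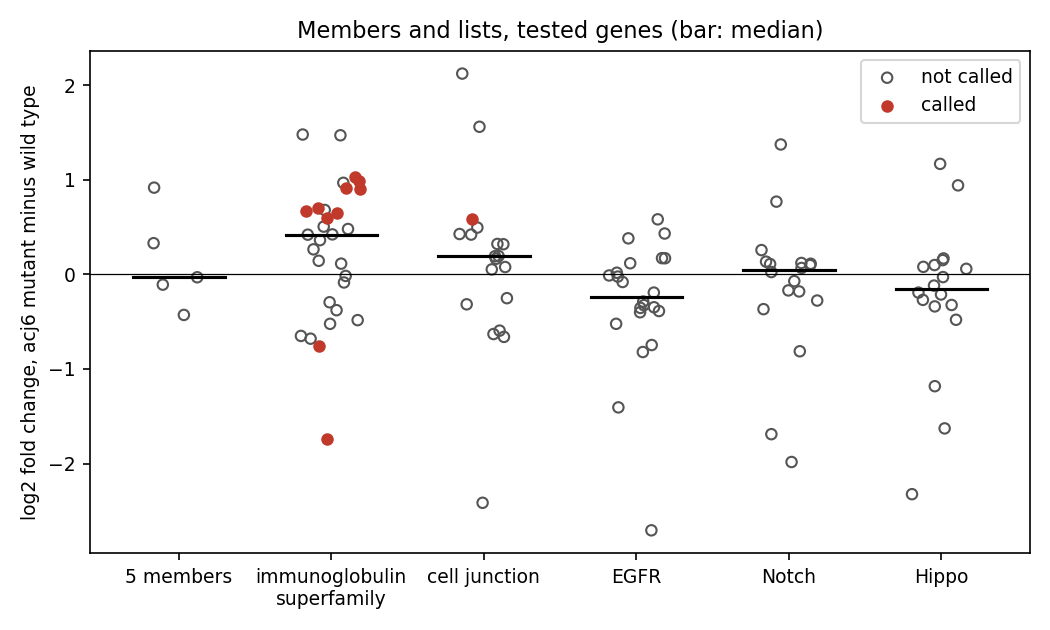
log2 fold change, acj6 mutant minus wild type, of the 5 members and of tested genes in 5 lists, 1 point per gene, filled where the adjusted p was under 0.05 in edgeR, with the median as a bar. The median of the immunoglobulin list is 0.42 and that of the members -0.03. With the length trend removed, not drawn here, these medians were 0.20 and -0.10.

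Patterns over the 6 libraries were compared by the root-mean-square difference of gene-centred log2 CPM, among 5940 other genes of at least 10 mean CPM and among the immunoglobulin list. Nearest to klg were Syn, the synapsin gene, at 0.0582 and Unc-115a, an actin-binding protein gene, at 0.0587, and in the immunoglobulin list nrm, at 0.0608. Nearest to tutl were CG3907 (0.0396) and ND-49 (0.0430), a subunit of mitochondrial complex I, and in the list fipi (0.157). For bdl these were Sol1 (0.0824), Taf7 (0.146) and wrapper (0.399), a glial surface protein.

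Nearest to ed were CG4820 (0.182) and CG1532 (0.194), both also highest in wild-type replicate 3, and in the list Lar (0.338), most of whose exon bases are shared with another annotated gene. fred was nearest to Sesn, the sestrin gene (0.127), Scp2 (0.144) and, in the list, Dscam3 (0.293). Sesn had 186, 182.5 and 227 CPM in the mutant and 87.8, 109 and 153 CPM in the wild type. Among the members themselves the smallest difference was between klg and tutl (0.220), and the largest between ed and fred (0.704), the paralogs. The measure is small for any genes that vary little, and klg and tutl had the smallest replicate spread of the members. The value of this pair therefore does not show a shared pattern, and their log2 fold changes were 0.33 and -0.03.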

How the data were processed

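RNA of adPNs was sequenced from 3 acj6 mutant and 3 wild-type libraries, made by modified SMART-seq2 per the labels and so without molecular identifiers. What the authors deposited is a raw read count for each gene in a separate file for each library. Per the submitters' processing notes, HTSeq 0.11.2, STAR 2.5.4 and bcl2fastq 2.19.0.316 were used. The sources used here do not name a build, annotation or strand setting, so no coordinates are printed and genes overlapping an antisense gene are uncertain. Each file held 17471 genes, 96 spike-in sequences, 3 transgenes and 5 summary entries, and the last 3 kinds were left out of every library size and test. Reads outside genes came to 8.59% to 10.9% of gene counts, and alignments set aside as not unique to 2.19 to 4.16 per gene count.

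Names, arms and transcript lengths came from Ensembl 115 (BDGP6.54) by identifier, and 17242 genes matched. Of the list entries 8 were not matched and are not analysed here. Genes passing filterByExpr (9229) were scaled by TMM and tested by genotype with edgeR 4.0.16 (glmQLFit, glmQLFTest, two-sided, R 4.3.3) and Benjamini-Hochberg adjustment over all of them. CPM values are TMM-scaled, means are ± SD, and 3 counts are 0.0784 to 0.123 CPM before scaling. Ratios used 0.5 added counts and exact permutation tests (SciPy 1.17.1). Alternatives were DESeq2 1.42.0, limma 3.58.1 (voom), other scalings and filters (no filter, or at least 50 counts in 3 libraries), robust variances, a loess trend with length (span 0.5) removed per library, a replicate block and each library left out. The fit was tested on simulated data.

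No 2 libraries of a genotype were alike within sampling noise, with a chi-square of 55.2 to 105.7 for each degree of freedom. Members and lists were chosen with earlier results of these data known. Named genes are the members, acj6, the partners, up to 3 called genes with the smallest p per list, the most abundant marker of each other cell type and the genes nearest in pattern. Further genes were named after their values were seen, among them kn, bnb, repo, DAT, the 4 cuticle genes, Lac, robo2 and the genes between fred and bdl.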

Additional observations from a re-analysis of the deposited data

How the results depend on the processing

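Over 16 alternatives for each of the 5 genes, 73 of 80 values kept their direction and their side of the threshold. fred passed it with DESeq2 (log2 fold change 0.93), and the other 6 turned direction in genes that were not called. With 1 library left out the log2 fold change ran from 0.75 to 1.08 for fred, 0.23 to 0.40 for klg, -0.12 to 0.041 for tutl, -0.63 to 0.078 for ed and -0.41 to 0.17 for bdl. The ed to fred difference ran from -1.48 to -1.01 and the bdl to tutl difference from -0.46 to 0.23. Genes called over all tested genes numbered 406, against 940 with DESeq2, 209 with a replicate block and the length trend removed, and 143 to 249 with any 1 of the 6 libraries left out. The cause of these differences was not tested, other than that fewer libraries enter the last. The labels do not say that replicate numbers pair the libraries. Deviations of same-numbered libraries correlated at 0.016, -0.001 and 0.047, and not every library correlated best with its own number. Whether same-numbered libraries shared a preparation was not tested. A replicate block called 293 genes and gave 0.93 for fred, 0.32 for klg, -0.03 for tutl, -0.31 for ed and -0.16 for bdl. With that block 4 junction and polarity genes were called, cno among them, against 1 without it.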
